A study of Mus musculus with 8 samples.

Results

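Hearts take up large amounts of oxygen, and the superoxide and hydrogen peroxide that arise from its use are cleared by a small set of enzyme families. Superoxide dismutases turn superoxide into hydrogen peroxide, which catalase, glutathione peroxidases and peroxiredoxins then reduce. Glutathione and thioredoxin supply the electrons and are themselves renewed with NADPH, while glutathione transferases, paraoxonases and carbonyl reductases dispose of reactive products, and methionine sulfoxide reductases repair oxidised protein. The 49 genes described here encode such enzymes and were listed by symbol; the rule uses no measured value, but the list was drawn up with earlier results of these data known. All 49 were found among the 27304 genes of the deposited count table, each on 1 line, and all 49 were among the 20093 genes that passed the low-count filter. The fewest reads of any member in any library was 41, for Cbr3.

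RNA was sequenced from cardiac tissue of male mice of the inbred strain 129/Sv. The adenine group (4 libraries) ate a diet with 0.15% adenine for 13 weeks, which damages the kidney tubules and produces chronic kidney disease, and the control group (4 libraries) ate a standard diet for the same 13 weeks. Neither age nor any pooling of animals is stated by the labels. The series' design text says that the samples were analysed without replicates, while the sample titles number 4 libraries per diet, and these were treated as replicates here. The labels do not say that they came from separate animals, so each SD, SE and p-value measures the spread between these libraries only, which may be technical. Levels are counts per library size (CPM), scaled with edgeR's TMM factors, and are quoted as mean ± SD over 4 libraries of a diet. Fold changes are log2 values of adenine over control with a standard error (SE), from edgeR's quasi-likelihood test, and adjusted p-values are Benjamini-Hochberg values over all 20093 genes, with 0.05 as the threshold. In bulk tissue, fewer cells of a type and less RNA per cell cannot be told apart.

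No member passed the threshold. Over all genes, 0.0398% of the genes tested passed it, 8 genes, all higher on adenine. Direction was less even: 40 of 49 members (81.6%) had a negative log2 fold change, against 45.8% of all genes tested. The members' median log2 fold change was -0.17, with a range of -1.08 to 0.39, beside a median of 0.05 over all genes. At an unadjusted p under 0.05, 6 members were lower on adenine (6.63% of all genes were) and 0 were higher (10.9% of all genes were). Every adenine library lay below every control library for 6 members: Gstt1, Msrb2, Cbr1, Selenow, Gstz1 and Sod1. Of all genes tested, 3.84% did so, while 3.45% had every adenine library above every control library, as 0 members did. The DESeq2 Wald test called 1 member, Gstt1, lower, where it called 0.797% of genes lower. Upper-quartile factors moved all genes up together: 26 of 49 members and 29.7% of all genes were negative, and the members' median less that of all genes was -0.22, beside -0.23 with TMM factors. Cyclic loess, which removes differences that follow abundance, left a difference of -0.01 between those medians, with 27 of 49 members and 49.2% of all genes negative. A filter of 1 CPM in 4 libraries kept 15727 genes, and 34 of 49 members were negative. The members' median was then -0.10, beside 0.01 over all genes, a difference of -0.11. The share of all genes that were negative was not counted for that filter. Without control 2, 32 members and 42% of genes were negative, the members' median was -0.08, and 3 members and 3.59% of genes were lower at an unadjusted p under 0.05. Without adenine 3, 46 members and 46.4% of genes were negative, the members' median was -0.22, and 11 members and 9.9% of genes were lower at an unadjusted p under 0.05. Every adenine library lay below every control library for 7 members and 8.31% of genes once adenine 3 was left out.

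**Figure D1:**
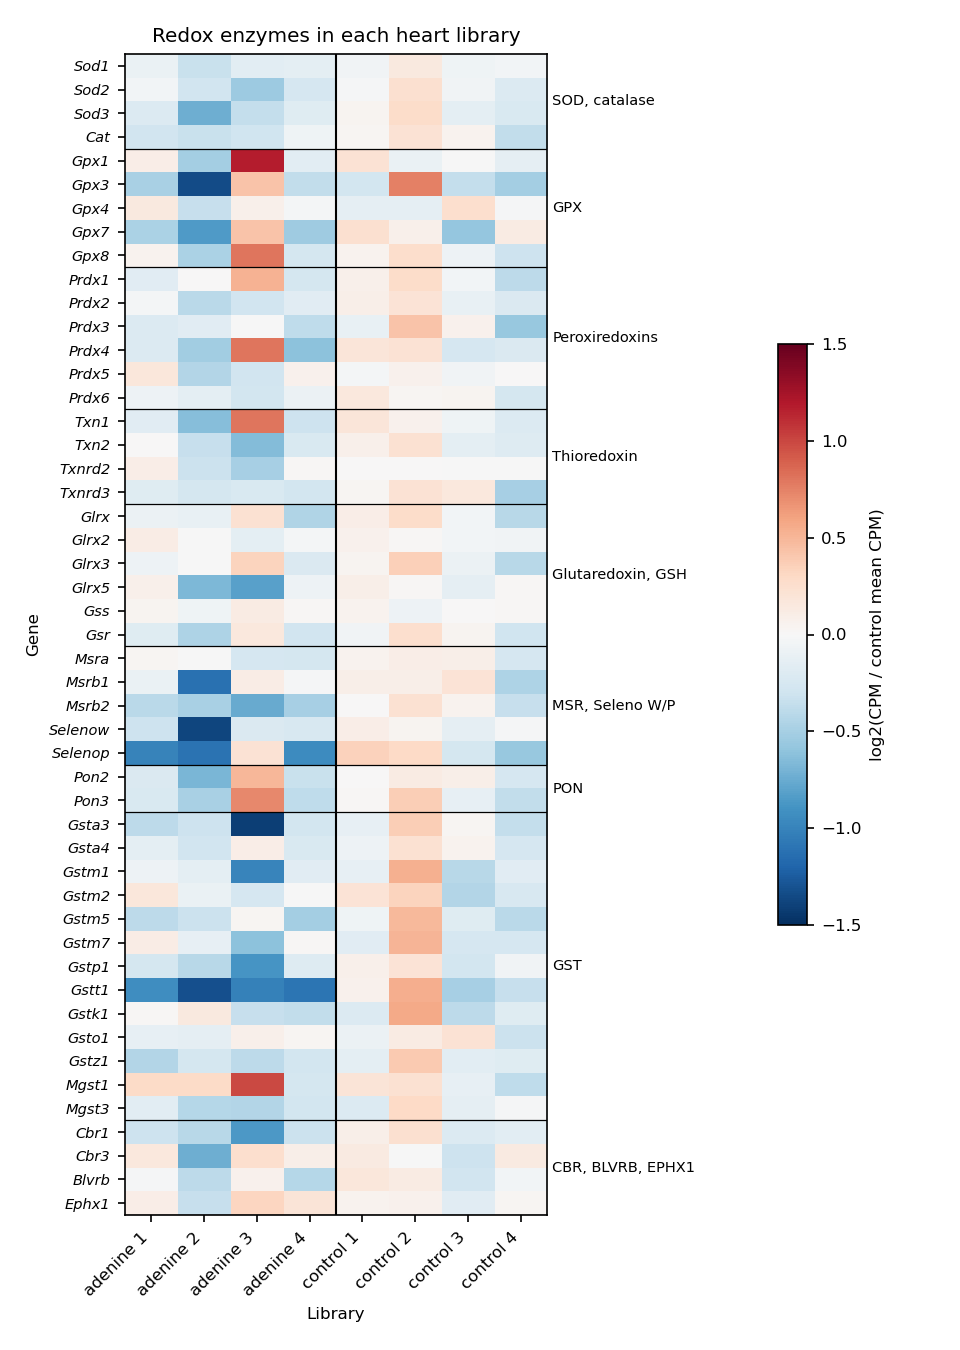
Heat map of the 49 redox enzymes (lines, grouped by enzyme class) in the 4 adenine libraries (left) and the 4 control libraries (right); colour is log2 of CPM over the control mean. Control 2 has the highest value for 26 of the 49 genes, and adenine 2 the lowest for 20.

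Gstt1 encodes the theta 1 glutathione transferase, a cytosolic enzyme that acts on small halogenated compounds and epoxides. Its fold change was the lowest of the 49. The gene (ENSMUSG00000001663) lies on the minus strand of mouse chromosome 10, chr10:75783813-75798584 in GRCm38. Cbr1 and Sod1, which also had diets that did not overlap, both lie on chromosome 16 (chr16:93605853-93610505 and chr16:90220754-90226329, plus strand). For these 3 genes the 250 bases before the RefSeq start (GRCm38.p6) are printed 5′ to 3′ on the gene's own strand. They hold few or no annotated exon bases and let the reader compare members with the same direction of difference. The Gstt1 and Cbr1 windows lie inside the gene intervals given above, downstream of the outermost annotated start. Motif matches there describe the RefSeq window only. Capitals mark matches to any of 4 motifs searched on both strands with overlaps allowed: TGACNNNGC, the core of the antioxidant response element; the palindromic glucocorticoid response element, by its fixed bases; GGGCGG, the GC box; and CCAAT.
Gstt1, chr10:75797732-75797981, minus strand: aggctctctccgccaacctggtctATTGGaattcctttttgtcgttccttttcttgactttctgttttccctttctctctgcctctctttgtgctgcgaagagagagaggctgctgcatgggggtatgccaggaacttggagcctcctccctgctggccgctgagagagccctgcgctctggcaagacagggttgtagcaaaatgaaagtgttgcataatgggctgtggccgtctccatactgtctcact
Cbr1, chr16:93607587-93607836, plus strand: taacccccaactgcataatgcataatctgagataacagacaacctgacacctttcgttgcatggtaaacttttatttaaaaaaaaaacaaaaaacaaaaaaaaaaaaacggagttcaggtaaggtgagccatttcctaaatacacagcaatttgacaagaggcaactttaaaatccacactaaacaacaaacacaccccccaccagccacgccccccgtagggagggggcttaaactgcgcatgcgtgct
Sod1, chr16:90220512-90220761, plus strand: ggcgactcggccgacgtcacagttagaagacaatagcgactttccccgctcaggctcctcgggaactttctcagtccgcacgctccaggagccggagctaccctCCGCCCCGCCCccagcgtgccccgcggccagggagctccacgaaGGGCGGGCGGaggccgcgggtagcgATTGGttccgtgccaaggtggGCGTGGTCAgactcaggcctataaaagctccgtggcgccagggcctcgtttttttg

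The Gstt1 window holds a CCAAT box on the opposite strand, the Cbr1 window holds none of the 4 motifs, and the Sod1 window holds GC boxes, a CCAAT box and 1 antioxidant response element core. Over the 44 members with a window of this length, 6 hold the antioxidant response element core (13.6%, against 11.5% of 27025 genes), namely Gsta3, Gstm5, Gstm7, Mgst1, Prdx1 and Sod1. The GC box occurs in 27 members (61.4%, against 35.4% of genes) and CCAAT in 19 (43.2%, against 37.5%). The glucocorticoid response element occurs in 0 members and in 0.44% of genes. The 27025 genes were not filtered by expression, while all members passed the low-count filter, so the compared sets are unlike. All motif counts here are matches of letters in a window and say nothing of binding.

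Gstt1 had 10.2, 7.89, 9.71 and 9.20 CPM in the adenine libraries, against 20.4, 28.6, 13.9 and 15.4 CPM in the control libraries. The adenine libraries lay close together and each stood below the lowest control library, and the spread was within the controls. The mean was 9.26 ± 1.01 CPM on adenine and 19.6 ± 6.63 CPM on control, 47.2% of the control mean (log2 fold change -1.08, SE 0.21, adjusted p = 0.114 by edgeR). The negative sign held in all 19 alternative settings run, between -1.19 and -0.84. DESeq2 gave -1.15 with an adjusted p of 0.0076, and edgeR without adenine 3 gave -1.11 with an adjusted p of 0.0477, a fit in which 0.144% of genes were called lower. No 50-base window of its exons occurs in another gene. Of its theta-class relatives, Gstt2 had 14.3 ± 1.32 CPM on adenine and 16.2 ± 1.47 CPM on control (edgeR adjusted p = 0.463), and Gstt3 had 4.21 CPM on adenine and 4.41 CPM on control (edgeR adjusted p = 0.863).

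**Figure D2:**
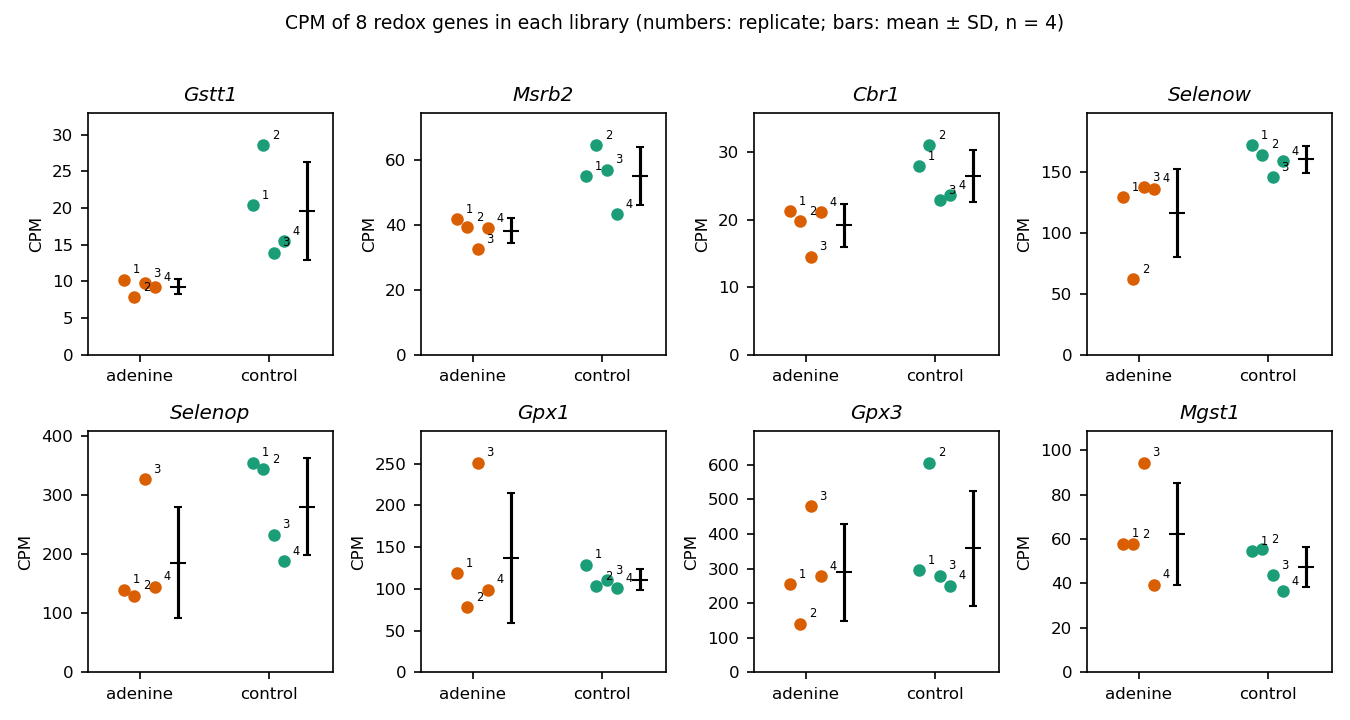
CPM of 8 redox genes in each adenine library (left in each panel) and control library (right); numbers are the replicate, and bars are the mean ± SD of 4 libraries. Gstt1, Msrb2, Cbr1 and Selenow have no overlap between diets, while in Selenop, Gpx1, Gpx3 and Mgst1 single libraries stand apart.

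Among the other glutathione transferases, which couple glutathione to electrophiles, 11 of 12 had a negative fold change, and the class of 13 had a median of -0.28. That median was -0.07 without control 2, which held the highest value for 11 of the 13. Gstz1, the maleylacetoacetate isomerase of tyrosine breakdown, had 25.1, 28.4, 26.0 and 28.0 CPM on adenine, against 44.8 CPM in control 2 and 30.1 to 30.8 CPM in the other controls. Its diets did not overlap, by a margin set by the controls near 30.1 CPM (log2 fold change -0.34, SE 0.16, edgeR adjusted p = 0.281, and -0.19 without control 2). Gstp1, the pi-class transferase that binds many drugs and carcinogens, had 106, 95.6, 69.2 and 112 CPM on adenine, against 135, 148, 105 and 122 CPM on control. Its diets overlapped through control 3 (log2 fold change -0.41, SE 0.18, edgeR adjusted p = 0.274), and 33.7% of its 50-base windows also occur in Gstp2 or a pseudogene. Gsta3, an alpha-class enzyme, had 8.56, 8.99, 4.20 and 9.27 CPM on adenine, against 10.2, 14.4, 11.4 and 8.71 CPM on control. Adenine 3 lay well below every other library, and without it the log2 fold change was -0.34, beside -0.53 (SE 0.25, edgeR adjusted p = 0.285) with all libraries.

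Of the mu class, Gstm1 had 134, 127, 71.2 and 125 CPM on adenine, against 129, 204, 105 and 125 CPM on control. Adenine 3 was low and control 2 high, and with both left out the log2 fold change was 0.05, beside -0.30 (SE 0.24, edgeR adjusted p = 0.452) with all libraries; 18.9% of its windows occur in other genes. Gstm5 had 25.4, 26.7, 33.9 and 23.4 CPM on adenine, against 32.0, 46.8, 29.3 and 25.2 CPM on control (log2 fold change -0.28, SE 0.19, edgeR adjusted p = 0.403). Control 2 was the highest library for Gstm5, and without it the log2 fold change was -0.07. Both microsomal members, which sit in membranes and also reduce lipid peroxides, took opposite signs. Mgst3 had 197, 163, 163 and 181 CPM on adenine, against 191, 271, 199 and 217 CPM on control, with adenine 1 alone above the lowest control (log2 fold change -0.32, SE 0.16, edgeR adjusted p = 0.308, and -0.21 without control 2). Mgst1 had 57.9, 57.8, 94.3 and 39.5 CPM on adenine, against 54.4, 55.6, 43.6 and 36.6 CPM on control, and had the highest fold change of the 49 (log2 0.39, SE 0.23, edgeR adjusted p = 0.356). Adenine 3 carried most of that difference, and without it the value was 0.11.

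Methionine sulfoxide reductases and selenoproteins W and P had a median of -0.46, and all 5 were negative. The median was the lowest of the 9 classes with all libraries, but without adenine 2 it was -0.26, above the -0.27 of the transferases in the same fit. Msrb2, the mitochondrial reductase for the R form of methionine sulfoxide, had 41.9, 39.5, 32.7 and 39.1 CPM on adenine, against 55.2, 64.8, 57.2 and 43.5 CPM on control. No adenine library reached the lowest control, although adenine 1 and control 4 lay close (38.3 ± 3.94 CPM on adenine and 55.2 ± 8.83 CPM on control, log2 fold change -0.53, SE 0.15, edgeR adjusted p = 0.216). Selenow, a small thioredoxin-fold selenoprotein abundant in muscle and heart, had 129.7, 62.1, 138 and 137 CPM on adenine, against 173, 165, 146 and 159 CPM on control. Diets did not overlap, but adenine 2 stood far below the other adenine libraries, and the log2 fold change of -0.46 (SE 0.22, edgeR adjusted p = 0.296) was -0.26 without it. Selenop, the secreted protein that carries selenium in plasma, had 140.2, 130.1, 327 and 145 CPM on adenine, against 355, 344, 233 and 189 CPM on control. Adenine 3 stood among the controls while the other adenine libraries lay below every control, so the log2 fold change of -0.59 (SE 0.30, edgeR adjusted p = 0.313) was -1.03 (adjusted p = 0.0542) without adenine 3. A share of 13.5% of its windows also lies in Ccdc152, on the opposite strand, and no source used here states whether counting used strand. Msra and Msrb1 had log2 fold changes of -0.12 and -0.21, with adjusted p-values of 0.61 by edgeR for both.

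All 4 superoxide dismutase and catalase genes were negative, with a median of -0.25 that was -0.08 under cyclic loess. Sod1, the cytosolic copper-zinc enzyme, had 251, 213, 241 and 243 CPM on adenine, against 259, 297, 257 and 261 CPM on control. Its diets did not overlap, yet the gap between the nearest libraries was small beside the means (237 ± 16.8 CPM on adenine and 268 ± 19.0 CPM on control), and the log2 fold change was -0.18 (SE 0.15, edgeR adjusted p = 0.468). Sod2, the manganese enzyme of the mitochondrial matrix, had 476, 402, 334 and 409 CPM on adenine, against 481, 579.5, 472 and 423 CPM on control, with adenine 1 inside the control range (log2 fold change -0.27, SE 0.18, edgeR adjusted p = 0.384). Sod3, the secreted form held on the vessel wall and matrix, had 26.5, 18.4, 23.8 and 27.0 CPM on adenine, against 31.4, 37.1, 27.7 and 26.0 CPM on control. Only control 4 lay within the adenine range there (log2 fold change -0.35, SE 0.16, edgeR adjusted p = 0.289). Cat, the peroxisomal catalase, had 85.6, 82.3, 85.0 and 99.9 CPM on adenine, against 107, 121, 108 and 80.8 CPM on control, with control 4 below every adenine library (log2 fold change -0.24, SE 0.15, edgeR adjusted p = 0.381).

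Glutathione peroxidases showed no common direction, 3 of 5 being negative, and their median of -0.02 was 0.11 with upper-quartile factors, 0.12 with cyclic loess and -0.22 without adenine 3. Gpx4, which reduces lipid peroxides in membranes and guards against ferroptosis, had 670.1, 476, 636 and 593 CPM on adenine, against 551, 551, 717 and 595 CPM on control. The ranges overlapped over most of their length (log2 fold change -0.02, SE 0.18, edgeR adjusted p = 0.95), and 34.7% of its windows also occur elsewhere, in a pseudogene among others. Gpx1, the cytosolic enzyme, had 119, 78.1, 251 and 99.2 CPM on adenine, against 129, 103, 110.3 and 101 CPM on control. A single library, adenine 3, was high, and the log2 fold change of 0.30 (SE 0.29, edgeR adjusted p = 0.539) was -0.18 without it. Gpx3, the plasma form, had 256, 141, 481 and 278 CPM on adenine, against 297, 606, 279.8 and 251 CPM on control. Here control 2 and adenine 3 were high, so that the log2 fold change of -0.31 (SE 0.35, edgeR adjusted p = 0.599) ranged from -0.68 to 0.08 as each library was left out in turn, lowest without adenine 3 and highest without control 2. Gpx7 and Gpx8, which act in the endoplasmic reticulum, had log2 fold changes of -0.27 and 0.12.

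Peroxiredoxins, which reduce peroxide with a reactive cysteine, had a median of -0.12, with 5 of 6 negative; it was 0.02 with upper-quartile factors, 0.04 with cyclic loess, -0.07 without adenine 2 and -0.04 without control 2. Prdx2, abundant in red blood cells as well as in tissue, had 332, 255, 276 and 301 CPM on adenine, against 359.9, 388, 313 and 290.3 CPM on control. Prdx3 of the mitochondria had 163, 167, 187 and 144 CPM on adenine, against 174, 253, 197 and 127 CPM on control. Prdx5, found in several compartments, had 388, 254, 282 and 358 CPM on adenine, against 338, 361, 332 and 344 CPM on control. Adenine and control libraries overlapped for each of these 3 genes, with log2 fold changes of -0.22 for Prdx2, -0.18 for Prdx3 and -0.10 for Prdx5, and edgeR adjusted p-values of 0.446, 0.589 and 0.734. For Prdx3 the value was -0.0051 without control 2 and -0.34 without control 4, and for Prdx5 it was -0.22 without adenine 1 and -0.0042 without adenine 2. The count of Prdx2 can include reads of a pseudogene or of overlapping genes on the opposite strand (12.0% of its windows are shared), and that of Prdx5 reads of Trmt112 (15.5%). Prdx1, Prdx4 and Prdx6 lay between -0.15 and 0.05.

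The thioredoxin system reduces peroxiredoxins and methionine sulfoxide reductases, and 3 of its 4 genes were negative (median -0.20). Txn2, the mitochondrial thioredoxin, had 145, 113, 91.8 and 123 CPM on adenine, against 152, 168, 130.2 and 126 CPM on control, with adenine 1 alone inside the control range (log2 fold change -0.28, SE 0.17, edgeR adjusted p = 0.362). Txnrd2, its reductase, was nearly constant in the controls, at 28.5 to 28.9 CPM, and spread from 20.3 to 30.8 CPM on adenine. Txn1, the cytosolic thioredoxin, had 82.4, 59.3, 161 and 74.3 CPM on adenine, against 105, 96.5, 88.3 and 80.2 CPM on control, with adenine 3 highest of all.

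Glutaredoxins, glutathione synthetase and glutathione reductase had a median of -0.05, which was 0.10 with upper-quartile factors, 0.12 with cyclic loess, -0.15 without adenine 3 and 0.02 without adenine 4. Glrx5, a mitochondrial glutaredoxin that hands on iron-sulfur clusters, had 96.1, 57.4, 51.7 and 86.7 CPM on adenine, against 97.1, 92.4, 83.5 and 92.3 CPM on control. Adenine 2 and adenine 3 lay below every control and the other adenine libraries within their range (log2 fold change -0.32, SE 0.19, edgeR adjusted p = 0.359, with -0.50 without adenine 1 and -0.20 without adenine 3). Gss, the synthetase that completes glutathione, spanned 13.3 to 15.1 CPM on adenine, against 13.1 to 14.4 CPM on control, and Gsr, the reductase that renews glutathione, had a log2 fold change of -0.17. Pon2, an intracellular lactonase, had 44.2, 31.9, 72.5 and 40.8 CPM on adenine, against 51.8, 56.0, 54.6 and 43.2 CPM on control; its log2 fold change was -0.12 (SE 0.22, edgeR adjusted p = 0.755), 0.01 with upper-quartile factors, and -0.41 without adenine 3. Cbr1, a carbonyl reductase that also reduces quinones and anthracyclines, had 21.3, 19.8, 14.5 and 21.0 CPM on adenine, against 27.9, 31.1, 22.9 and 23.7 CPM on control. All adenine libraries were below all controls (19.1 ± 3.17 CPM on adenine and 26.4 ± 3.82 CPM on control), with a log2 fold change of -0.47 (SE 0.16, edgeR adjusted p = 0.246). Its neighbours in the class, Cbr3, Blvrb and Ephx1, had log2 fold changes of -0.0028, -0.17 and 0.09.

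**Figure D3:**
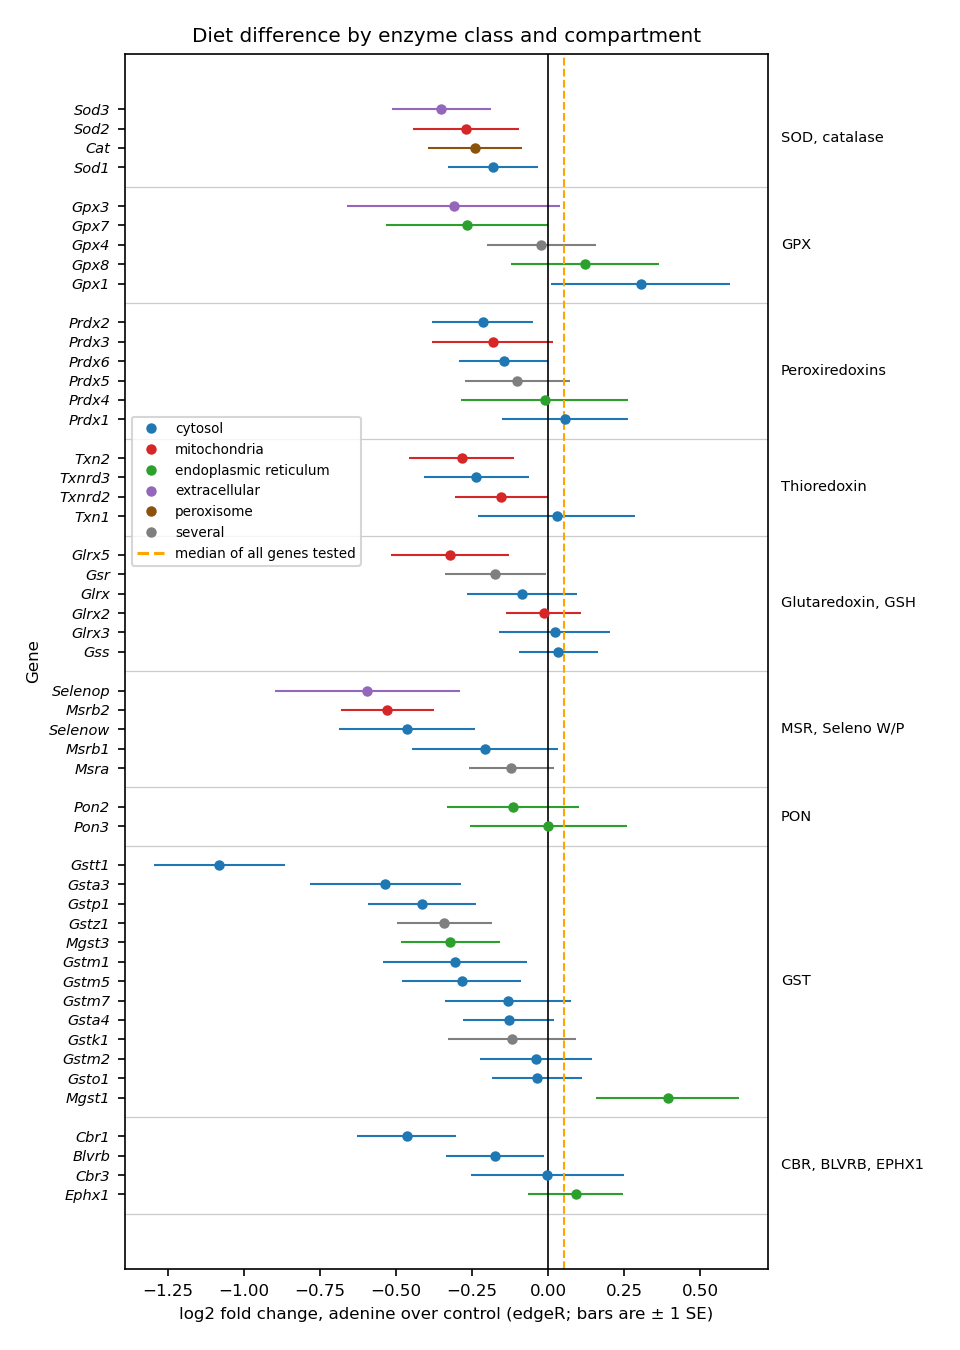
Log2 fold change of adenine over control for the 49 genes by enzyme class, coloured by compartment, with bars of 1 SE; the dashed line is the median of all genes tested, 0.05. Most points lie left of that line, from -1.08 for Gstt1 to 0.39 for Mgst1.

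The 24 members outside the 25 named by rule had log2 fold changes of -0.27 to 0.12, with 17 negative and a median of -0.06. By compartment, all 7 mitochondrial members were negative (median -0.27, and -0.11 under cyclic loess or upper-quartile factors). All 3 extracellular ones were negative too (median -0.35). As each library was left out in turn, the extracellular median ran from -0.68, without adenine 3, to -0.245. Against the control mean, the extracellular median was -0.485, -1.11, 0.22 and -0.37 in adenine 1 to 4. In control 4 it was -0.51, below adenine 1, 3 and 4. The cytosolic members had 19 of 24 negative (median -0.16, and -0.08 without control 2), and those of the endoplasmic reticulum 4 of 8 (median -0.01, which was 0.01 with relative log expression factors, 0.13 with upper-quartile factors and -0.33 without adenine 3). Enzymes found in several compartments were negative in 6 of 6 cases, with a median of -0.12 that was 0.04 with upper-quartile factors, 0.05 with cyclic loess and -0.08 without adenine 3 or without control 2. The 8 selenoproteins among the members had a median of -0.22, with 7 negative. Against the control mean, their median was -0.141, -0.807, 0.0954 and -0.198 in adenine 1 to 4. In control 1 to 4 it was 0.0548, 0.0639, -0.00852 and -0.301, so control 4 lay below adenine 1, 3 and 4.

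Levels between genes can be compared only per length, as TPM, here the count over the summed exon length scaled to a fixed total. Gpx4 was the most abundant, at 564 ± 88.1 TPM on adenine and 569 ± 84.8 TPM on control. Below it came Selenow (261 ± 91.6 TPM on adenine and 355 ± 39.4 TPM on control), Mgst3 (262 ± 24.7 TPM on adenine and 323 ± 36.4 TPM on control), Gpx3 (266 ± 144 TPM on adenine and 313 ± 117 TPM on control) and Prdx5 (245 ± 46.3 TPM on adenine and 261 ± 17.4 TPM on control). On adenine these 4 did not differ beyond their SD. Prdx3 had 183 ± 26.7 TPM on adenine and 203 ± 40.9 TPM on control, and Prdx2 had 156 ± 17.6 TPM on adenine and 179 ± 16.6 TPM on control. Gstt1 stood low, at 9.92 ± 1.27 TPM on adenine and 20.5 ± 5.62 TPM on control, and Gsta3 was lowest on adenine, at 2.91 ± 0.925 TPM, with 4.13 ± 0.545 TPM on control. With the longest transcript as the length Gpx4 kept rank 1 and Selenow moved from rank 2 to rank 4. Gpx3 then moved from rank 4 to 2, Prdx2 from 7 to 3, Mgst3 from 3 to 6 and Gstp1 from 14 to 7. The order below Gpx4 thus depends on the length used.

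**Figure D4:**
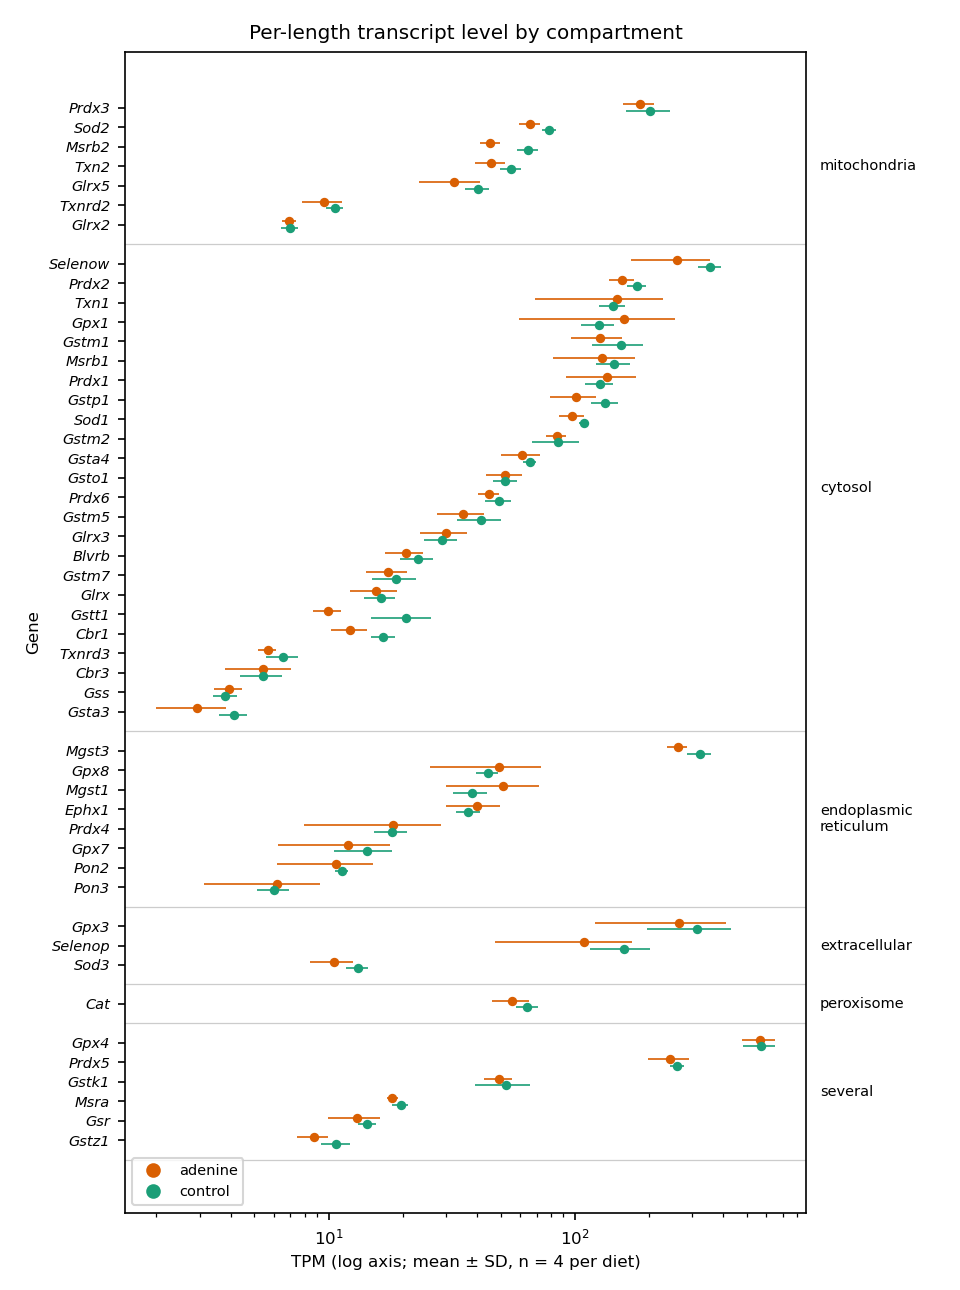
Transcript level per length of the 49 genes by compartment, on a log axis in TPM, as mean ± SD of the 4 adenine and the 4 control libraries. Gpx4 has the highest level in both diets, and Gstt1 shows a visible gap between diets at a low level.

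Single libraries shaped many of these values. Total counts ran from 15626620 to 29831706 in the adenine libraries, with the lowest in adenine 2, and from 24107554 to 33886385 in the control libraries. Against the control mean, the members' median log2 level was -0.11, -0.35, -0.15 and -0.26 in adenine 1 to 4, and 0.05, 0.22, -0.09 and -0.23 in control 1 to 4. Control 4 thus lay within the adenine range and control 2 above all. The TMM factor, which enters every CPM, was lowest in control 2 (0.8714) and highest in control 4 (1.086). Mitochondrial transcripts made up 30.98% of counts in control 1, 41% in adenine 1 and 41.85% in adenine 2. In the other libraries that share was 34.24% to 35.6%. The part of scaling and of this share in the members' medians was not tested. Adenine 3 was highest of the 8 libraries in 7 of 8 endoplasmic reticulum members and lowest in 6 of 7 mitochondrial members, while adenine 2 was lowest in 5 of 5 glutathione peroxidases and 6 of 8 selenoproteins. Without both adenine 3 and control 2, an alternative chosen after seeing the data, 44 of 49 members and 48.4% of genes were negative. Gstt1 (-0.90, edgeR adjusted p = 0.0199) and Selenop (-0.95, edgeR adjusted p = 0.0389) passed the threshold as lower in that fit, as did 0.795% of all genes, 164 of 20628.

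Sums of cell type markers stood apart in some of the same libraries, and the erythroid sum was highest in control 1. The 8 cardiomyocyte markers summed to 30740 to 52580 CPM on adenine, lowest in adenine 3, and 44730 to 57060 CPM on control, so the tissue label holds. The 8 macrophage markers summed to 301.5 to 2808 CPM on adenine, where adenine 3 alone exceeded 487.2 CPM, and to 372.9 to 629.8 CPM on control, with 7 of 8 positive. The 8 fibroblast markers summed to 1063 to 2364 CPM on adenine and 1869 to 2923 CPM on control, with 6 of 8 negative and a median of -0.72, and the 8 endothelial markers to 567.9 to 762.2 CPM on adenine and 787.4 to 1010 CPM on control, with 8 of 8 negative. The 7 erythroid markers in the table summed to 1662 to 3086 CPM on adenine and 7009 to 26050 CPM on control, with 6 of 7 negative and a median of -2.07. The 8 mural cell markers summed to 506.6 to 843.6 CPM on adenine and 739.3 to 1095 CPM on control, and the 8 adipocyte markers to 649 to 1088 CPM on adenine and 684.5 to 979.7 CPM on control. None of these lists had a member passing the edgeR threshold, and their part in the members' values was not tested. Red cells and their precursors are known to express Prdx2, Blvrb, Glrx5, Cat and Gpx1. Of these, Blvrb and Glrx5 were highest in control 1, Prdx2 and Cat in control 2, and Gpx1 in adenine 3. Whether red cells shaped these values was not tested.

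**Figure D5:**
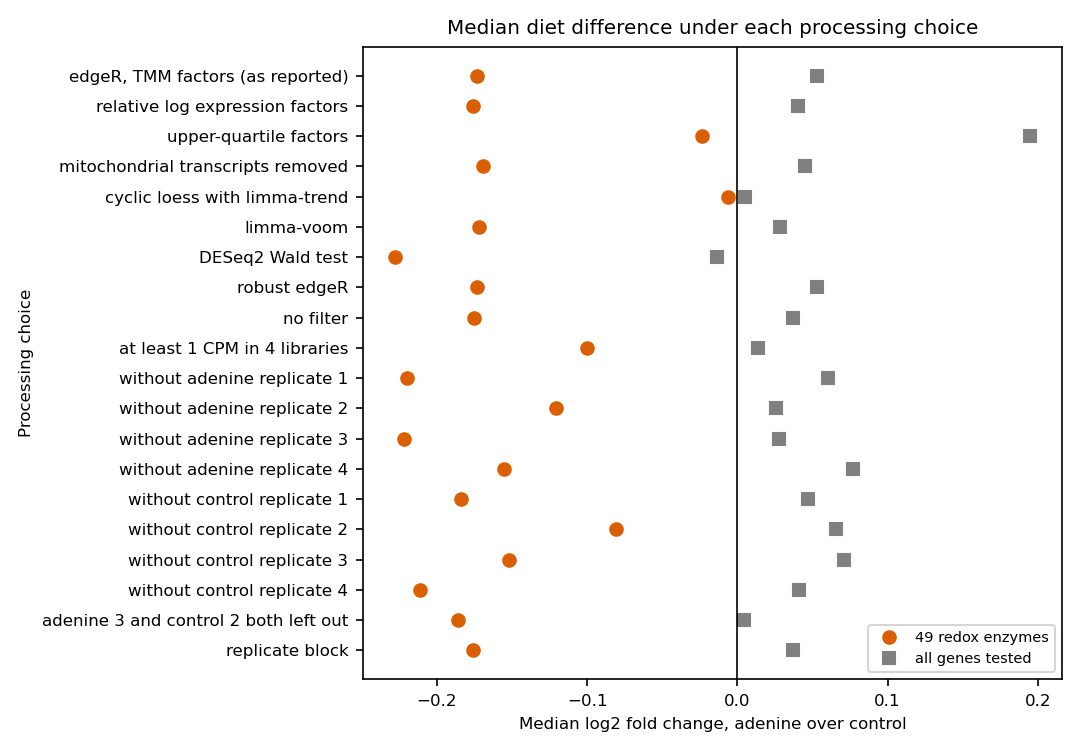
Median log2 fold change, adenine over control, of the 49 redox enzymes (circles) and of all genes tested (squares) under each processing choice. The members' median is -0.17 as reported and stays below that of all genes in each choice shown, with the narrowest gap under cyclic loess.

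Genes that feed these enzymes were counted from lists of the pathway, none of which had a gene past the edgeR threshold. Counts at an unadjusted p under 0.05 are given instead. Of all genes tested, 6.63% were lower and 10.9% higher by that measure, and 45.8% had a negative log2 fold change. In lists this short, counts this low by that measure lie near those shares. NADPH supply had 11 of 14 negative (median -0.19, with -0.03 under upper-quartile factors and -0.07 without control 2) and 1 lower by that measure, with the lowest p for the malic enzymes Me1 (log2 fold change -0.42, SE 0.18, edgeR adjusted p = 0.274) and Me3 (-0.27, SE 0.16, edgeR adjusted p = 0.36), which were -0.27 for Me1 and -0.17 for Me3 without control 2. Glutathione synthesis, transport and turnover had 8 of 20 negative (median 0.04, and -0.02 without adenine 1), 2 lower and 3 higher, with Dpep1, a dipeptidase that splits cysteinylglycine, at -0.62 (SE 0.19, edgeR adjusted p = 0.218) and Slc3a2, the heavy chain of the cystine transporter, at 0.46 (SE 0.15, edgeR adjusted p = 0.24). The 11 other selenoproteins were all negative (median -0.16, with -0.34 without adenine 3 and -0.05 without control 2) and 1 was lower by that measure, Selenon, which acts at the sarcoplasmic reticulum, at -0.43 (SE 0.13, edgeR adjusted p = 0.222) with no overlap between diets. Selenocysteine machinery had 7 of 9 negative (median -0.21), 1 lower and 1 higher. Lrp8, a receptor that takes up selenoprotein P, had 7.65 ± 1.96 CPM on adenine and 3.03 ± 0.969 CPM on control (log2 fold change 1.33, SE 0.27, edgeR adjusted p = 0.114), and DESeq2 called it (adjusted p = 0.00425). Redox regulators had 6 of 11 negative (median -0.02, and 0.11 with upper-quartile factors), 1 lower and 1 higher, with Sesn2 at 0.60 (SE 0.22, edgeR adjusted p = 0.249) and Sesn3 at -0.37 (SE 0.16, edgeR adjusted p = 0.277). Relatives of the members outside the 49 had 12 of 23 negative (median -0.03, and 0.09 with upper-quartile factors) and 2 lower. Cbr2, a carbonyl reductase, had 18.7 ± 4.00 CPM on adenine and 36.2 ± 10.4 CPM on control (log2 fold change -0.95, SE 0.22, edgeR adjusted p = 0.142), which DESeq2 called (adjusted p = 0.0273).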

How the data were processed

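Per the labels' protocols, RNA came from a TriFast extraction of cardiac tissue, and NEBNext Ultra reagents were used for the 4 adenine and 4 control libraries. FastQC 0.11.9, STAR 2.7.6a and GRCm38.p6 are listed in the submitters' processing notes; how reads were counted, with which annotation, strand setting or filter, is not stated there. The authors deposited raw read counts per gene, not normalized, for 27304 genes. Totals were 15626620 to 33886385 per library. Replicates differed by a chi-square per gene of 20 or more, so none was treated as a duplicate.

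Counts were fitted in R 4.3.3 with edgeR 4.0.16 (default filter by group, TMM factors, quasi-likelihood F-test), and standard errors were derived from the F statistic. TPM used exon lengths of GENCODE for GRCm38, matched for 27275 genes. RefSeq windows were matched for 44 of 49 members. The code was tested on simulated counts. Alternatives were relative log expression, upper-quartile and cyclic loess scaling, mitochondrial transcripts removed, limma-voom from limma 3.58.1, DESeq2 1.42.0, robust edgeR, filters of 1 CPM in 4 libraries or none, a replicate block, omission of single libraries, and a threshold of 0.1; leaving out adenine 3 and control 2 together was added after seeing the data.

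The members, gene lists and marker lists were chosen with earlier results of these data known. Members were named by rule: the 16 with the lowest edgeR p, the lowest-p member of each class, and the 2 most abundant per length among dismutases and catalase, glutathione peroxidases, peroxiredoxins and transferases, 25 in all; others were named after their values were seen.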

Additional observations from a re-analysis of the deposited data

Results flagged for a closer look

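Single libraries stood apart from the other 3 of their group, with a gap to the nearest library, as a share of the group's range, above Dixon's critical value, in 12 of 122 groups of 4 screened. For independent, normally distributed values chance alone gives such a gap in about 1 group in 20. The groups here come from the same libraries and are not independent, so 12 of 122 cannot be judged by that rate. Adenine 2 was low for Selenow, at 62.1 CPM. Adenine 3 was high for Selenop, at 327 CPM, and for Pon3, at 20.9 CPM, and low for Gsta3, at 4.20 CPM, and Gstm1, at 71.2 CPM. Adenine 4 stood apart for Scly, which frees selenium from selenocysteine, at 12.3 CPM. Control 2 was high for Sod1, at 297 CPM, Gpx3, at 606 CPM, Gstm7, at 26.9 CPM, Gstk1, at 71.9 CPM, and Gstz1, at 44.8 CPM. Control 4 was low for Msra, at 43.8 CPM. The cause of these values was not tested.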

How the results depend on the processing

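The negative sign of Gstt1 held under every alternative run, and only DESeq2, the fit without adenine 3, and that without adenine 3 and control 2 put it past the threshold. DESeq2 called 120 genes higher and 152 lower, with 1 member lower and 1 gene each among the selenocysteine machinery and the relatives. Without adenine 3 and control 2, 86 genes were higher and 164 lower, with 2 members lower and 1 gene in each of those lists; Gpx1 was -0.24, Gstm1 0.0492 and the selenocysteine median -0.15. Leaving out each library in turn gave 1 to 37 genes higher, 0 to 30 lower and 0 to 1 members called, each highest without adenine 3. It gave 3 (without control 2) to 11 (without adenine 3) members lower at an unadjusted p under 0.05, a transferase median of -0.33 to -0.0741, a selenocysteine median of -0.22 to -0.11, and values of -0.18 to 0.50 for Gpx1, -0.68 to 0.0847 for Gpx3, -0.0923 to 0.0887 for Gpx4 and -0.41 to 0.0311 for Pon2.

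Upper-quartile factors moved the median of all genes to 0.195 and gave 18 genes higher and 1 lower, 26 members negative, 2 members lower at an unadjusted p under 0.05, and medians of 0.0968 for glutaredoxins and glutathione enzymes, 0.0351 for several compartments, -0.0342 for NADPH supply, 0.19 for glutathione synthesis, -0.0626 for selenocysteine machinery and 0.089 for relatives; Gpx4 was 0.11, Prdx5 0.0388 and Pon2 0.01. Cyclic loess gave 1 gene lower, 2 members lower at an unadjusted p under 0.05, and medians of -0.0837 for dismutases and catalase, 0.12 for glutaredoxins and glutathione enzymes, 0.0487 for several compartments, -0.0417 for NADPH supply and -0.0947 for selenocysteine machinery; Gpx4 was 0.12, Prdx3 0.0265 and Prdx5 0.041. Limma-voom called 5 genes higher, robust edgeR 6 lower, no filter 1 lower, and a threshold of 0.1 21 higher and 10 lower. A filter of 1 CPM in 4 libraries gave 3 members lower at an unadjusted p under 0.05, a selenocysteine median of -0.13 and 0.0423 for Gpx4, and DESeq2 a selenocysteine median of -0.27. With upper-quartile factors, 29.7% of all genes were negative. For upper-quartile factors, cyclic loess and the 1 CPM filter, the share of all genes lower at an unadjusted p under 0.05 was not counted. The member counts by that measure therefore have no base rate in these settings. The cause was not tested.

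With the replicate number as a block, 16 genes were higher and 16 lower and 42 members were negative. The share of all genes that were negative was not counted for that fit, so the member count has no base rate there. The labels do not say that the numbers pair the libraries. Deviations of same-numbered libraries from their group means correlated at 0.0863, -0.50, -0.16 and 0.30, and not every library correlated best with its own number. With 4 libraries per diet, these correlations cannot exclude a pairing. The lowest member value was 2.51 CPM, for Cbr3 in the shallowest library, adenine 2, and no member had fewer than 41 reads. Genes of the other lists near 1 CPM rest on few reads in adenine 2.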
